A study of Mus musculus with 5 samples.

Results

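The genes of the betaine and methionine cycle were followed through ovulation and luteinization in mouse granulosa cells labelled as knockout for the transcription factors C/EBPα and C/EBPβ or as wild type. The set was named as 9 genes (Bhmt, Bhmt2, Mat1a, Mat2a, Mat2b, Ahcy, Cbs, Chdh and Mtr), and its members were all probe sets whose platform annotation gave 1 of these symbols alone. That left 11 probe sets for 8 of the 9 genes, out of 18194 genes and 34958 probe sets with a single symbol. Mat2a was not analysed here. The set was selected on the intensities of Bhmt, low in the knockout and high in wild type at 24 h, so every value of Bhmt below is a description and is not used as support for anything.

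Knockout granulosa cells (CEBPα/β fl/fl fl/fl with Cyp19-cre, a transgene that expresses the recombinase in granulosa cells) were collected 4, 8 and 24 h after human chorionic gonadotropin (hCG), and wild-type granulosa cells 8 and 24 h after it. All mice had first received equine chorionic gonadotropin (eCG) for 48 h, which drives follicle growth, and hCG then acts in place of the luteinizing hormone surge that triggers ovulation. Age was 23 days for the arrays at 4 and 8 h, and 24 days for those at 24 h. Each of the 5 groups was 1 Affymetrix array, with no replicates. The labels do not say whether animals were pooled, or whether wild-type mice carried floxed alleles or the transgene.

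In the methionine cycle, methionine is activated to S-adenosylmethionine (SAM), which donates its methyl group, and the product S-adenosylhomocysteine is split to homocysteine. Homocysteine is then either methylated back to methionine, with betaine or with methylfolate as the donor, or passed on to cysteine through transsulfuration. The betaine route is best known from liver and kidney, and the folate route is used in most tissues.

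Cebpa and Cebpb each read lower on the knockout array at 8 and at 24 h than on the wild-type array of that time, but Cebpb kept a clear signal in the knockout at 8 h. At 8 h, Cebpa had an intensity of 19 in the knockout and 685 in wild type, and Cebpb had 1127 in the knockout and 7436 in wild type. The 1127 lay at the 94.4th percentile of that knockout array, and the second Cebpb probe set read 275 in the knockout and 2926 in wild type. At 24 h, Cebpa had 38 in the knockout and 352 in wild type, and Cebpb had 85 in the knockout and 3976 in wild type. Granulosa cell markers were present on every array, with summed intensities of 35439 to 146114 over 13 genes, the highest on the knockout array at 4 h. Median intensity was 31 or 32 on 4 of the arrays and 54 on the knockout array at 4 h, which was therefore not on the same scale. With 1 array per group no test was possible. A gene passed a size rule where the higher of its intensities was 2-fold or more above the lower and reached a floor of 22, the 40th percentile of all values. A fold against a value under the floor was taken against the floor and is written "at least". The rule itself used the values as deposited, so a gene could pass it with an "at least" fold under 2.

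The promoters of Bhmt and Bhmt2 are shown because these are tandem neighbours on chromosome 13 that encode closely related methyltransferases, yet only Bhmt had signal above the floor. Each sequence is the 250 bases before the gene's start, 5′ to 3′ on the gene's strand, from RefSeq (GRCm38.p6). The Bhmt window is chr13:93637759-93638008 on the minus strand and the Bhmt2 window is chr13:93674303-93674552 on the minus strand. Capitals mark matches to CAAGGTCA, letters that the orphan nuclear receptors steroidogenic factor 1 and LRH-1 can bind. A match does not say which receptor, if any, binds there.
Bhmt: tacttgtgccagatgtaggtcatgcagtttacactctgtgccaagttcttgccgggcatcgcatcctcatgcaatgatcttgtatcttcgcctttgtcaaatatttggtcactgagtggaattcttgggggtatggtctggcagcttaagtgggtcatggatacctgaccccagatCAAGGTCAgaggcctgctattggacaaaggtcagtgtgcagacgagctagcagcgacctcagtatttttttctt
Bhmt2: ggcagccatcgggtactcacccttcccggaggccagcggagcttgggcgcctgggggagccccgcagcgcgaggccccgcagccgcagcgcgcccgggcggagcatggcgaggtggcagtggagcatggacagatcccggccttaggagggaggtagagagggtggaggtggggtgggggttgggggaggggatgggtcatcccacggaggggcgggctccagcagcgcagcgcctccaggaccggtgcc

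The Bhmt window held 1 match to CAAGGTCA, from 74 to 67 bases before the start, and the Bhmt2 window held none. Of 32851 windows of the same length before RefSeq gene starts, 1.33% held this motif on either strand. TTNNGNAA, a loose form of the C/EBP site, was found on neither strand of either window, while 36.8% of all windows held it. The strict palindrome TTGCGCAA was also not found in either, and 0.164% of all windows held it. GC content was 48% in the Bhmt window, with 5 CpG dinucleotides, and 74% in the Bhmt2 window, with 20, against medians of 52.4% and 6 over all windows. These motifs were chosen after the sequences had been read. No match says only that the letters are not in this window.

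Bhmt encodes betaine-homocysteine methyltransferase, which moves a methyl group from betaine to homocysteine and so makes methionine and dimethylglycine. Its probe set (1450624_at) had intensities of 30, 38 and 94 in the knockout at 4, 8 and 24 h, and of 8343 at 24 h and 93 at 8 h in wild type. The wild-type array at 24 h stood far above the other arrays, and the knockout at 24 h was at about the level that wild type had at 8 h. Relative to wild type, the knockout was 88.8-fold lower at 24 h and 2.45-fold lower at 8 h. From 8 h to 24 h it rose 2.47-fold in the knockout and 89.7-fold in wild type, and the log2 changes differed by -5.18 (knockout minus wild type), a contrast in which 3.09% of all genes passed the rule on the lower side.

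**Figure D1:**
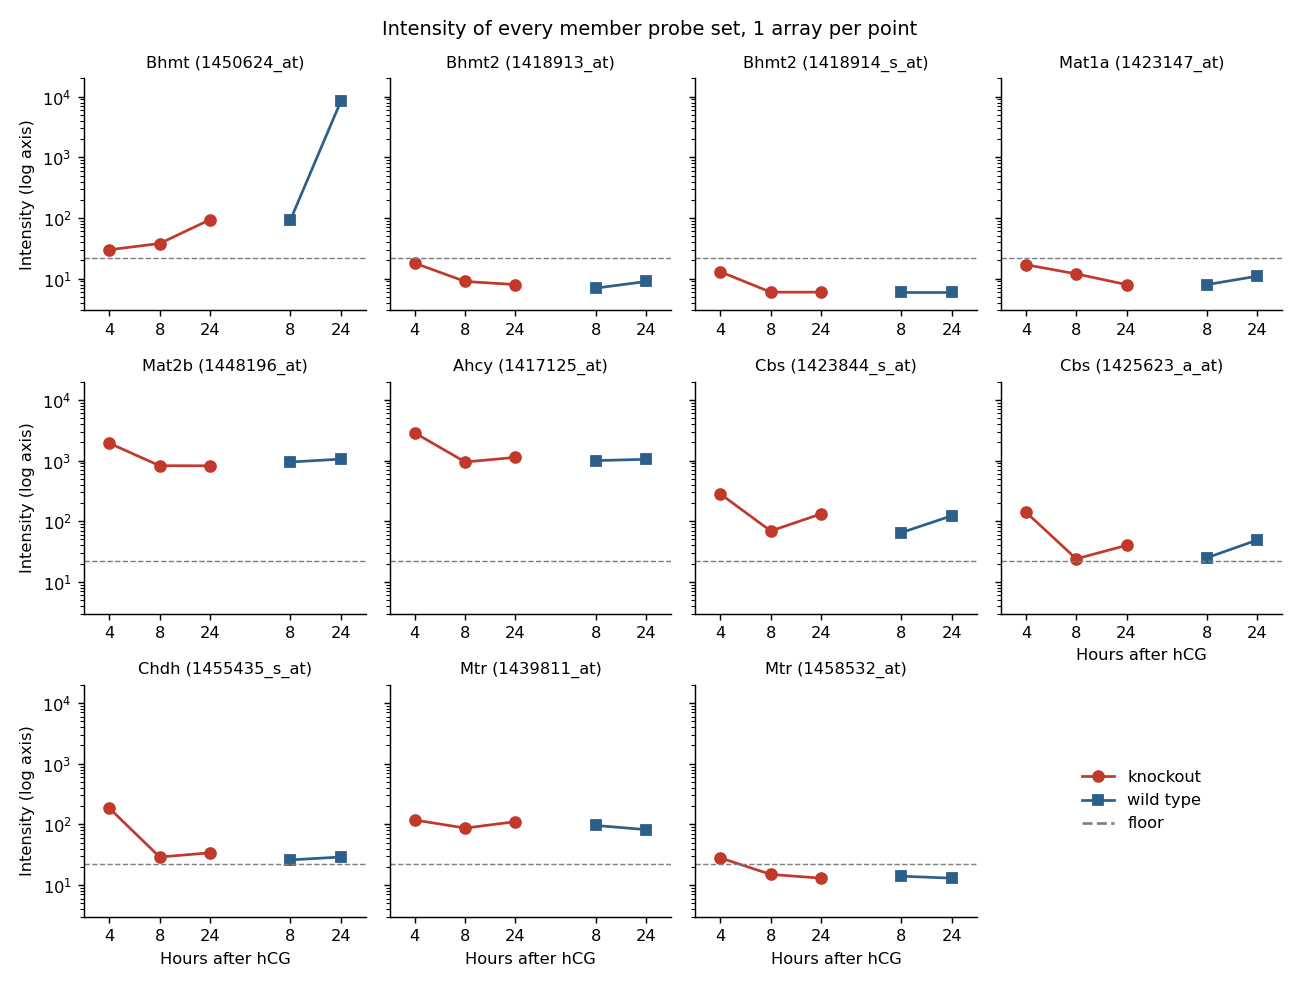
Intensity on a log axis of all 11 member probe sets, against hours after hCG, with 1 array per point. Knockout arrays are red circles, wild-type arrays blue squares and the dashed line is the floor of 22. The Bhmt panel reaches 8343 in wild type at 24 h, and Bhmt2 and Mat1a stay under the floor on every array.

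On the knockout array at 24 h, Bhmt lay at the 66.2nd percentile of all probe sets, and on the wild-type array of that time at the 99.5th. By size, its genotype difference at 24 h ranked 1 of 13052 genes at or above the floor. Cebpb, Apln (an angiogenic peptide), Hp (haptoglobin), Cxcr4 (a chemokine receptor) and Mmel1 (a membrane peptidase) came next in that order. Its rise in wild type from 8 h to 24 h ranked 1 among the 6487 genes that were higher at 24 h. At 8 h its genotype difference ranked 454 of 12924, and its rise in the knockout ranked 450 among 7284 genes that were higher at 24 h. Bhmt thus led the order of genes at 24 h and stood lower in it at 8 h.

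Bhmt2 encodes a related enzyme that uses S-methylmethionine as methyl donor. Its 2 probe sets read 18, 9 and 8 and 13, 6 and 6 in the knockout at 4, 8 and 24 h, and 9 and 6 at 24 h and 7 and 6 at 8 h in wild type. All 10 values were under the floor, so no difference between groups could be read for Bhmt2. Mat1a, the SAM synthetase of adult liver, was also under the floor throughout, with 17, 12 and 8 in the knockout at 4, 8 and 24 h, and 11 at 24 h and 8 at 8 h in wild type. Of the liver-type enzymes of this cycle, Bhmt thus had signal above the floor and Mat1a had none. Of 11 hepatocyte markers, 8 were under the floor on the 4 arrays at 8 and 24 h, among them the albumin gene Alb, and 3 when the knockout array at 4 h was counted too. Their summed intensity was 1458 in the knockout and 1803 in wild type at 24 h, of which Apoa1 gave 1311 and 1663, and 1904 in the knockout and 2967 in wild type at 8 h, of which Apoa1 gave 1758 and 2799.

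At 24 h, 1 of the 6 members at or above the floor (Bhmt) was lower in the knockout, and none was higher. Of all genes, 3.92% were lower and 3.13% higher by the same rule. At 8 h, the count was again Bhmt alone, lower, and 4.05% of all genes were lower. Bhmt was chosen for this contrast, so nothing is read from these counts. The other 5 members had genotype differences from -0.36 (Mat2b) to 0.44 (Mtr) on the log2 scale at 24 h, and from -0.20 (Mat2b) to 0.16 (Chdh) at 8 h. For comparison, different probe sets of a gene scattered around each other with an SD of 0.39 per probe set at 24 h and 0.26 at 8 h. This is a spread between probe sets on the same arrays, and it does not measure the spread between replicate arrays.

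**Figure D2:**
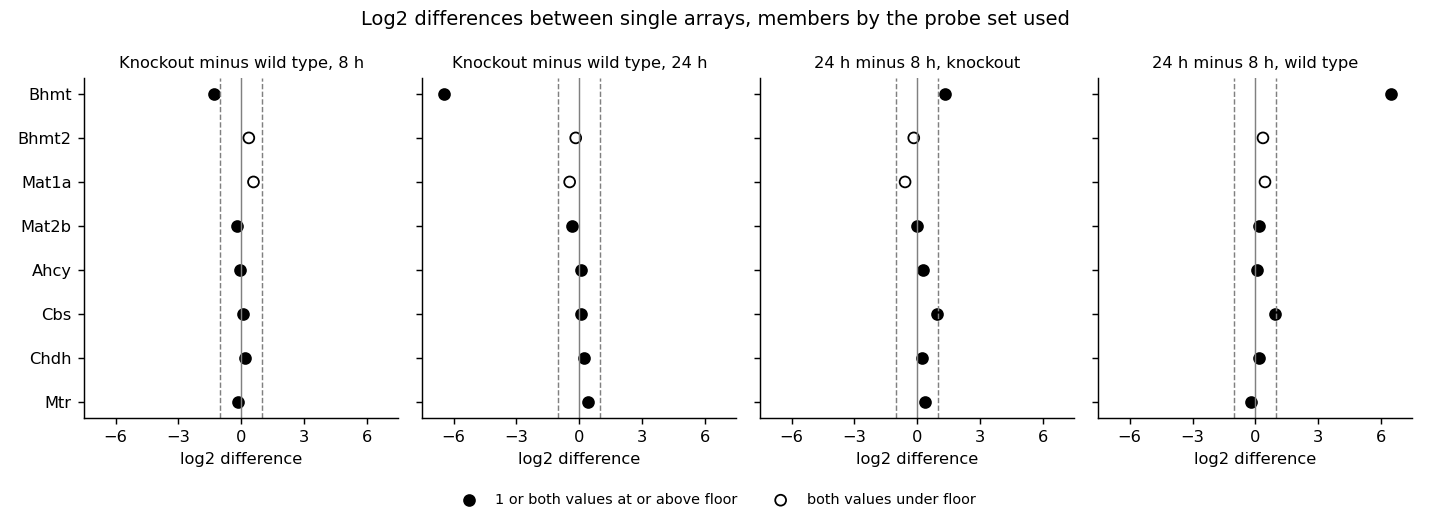
Log2 differences between single arrays (horizontal axis) for the 8 member genes, each by its probe set of highest mean, in 4 comparisons. Dashed lines mark a log2 difference of 1 in size, and open circles mark genes under the floor on both arrays. Bhmt lies outside the dashed lines in all 4 panels, at -6.47 for the knockout minus wild type at 24 h, and every other member lies inside them.

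Mat2b encodes the regulatory subunit of the SAM synthetase used outside liver. It read 1927, 822 and 820 in the knockout at 4, 8 and 24 h, and 1056 at 24 h and 946 at 8 h in wild type. The knockout was under wild type by 1.15-fold at 8 h and by 1.29-fold at 24 h, both short of the rule. Ahcy encodes the hydrolase that splits S-adenosylhomocysteine, and it read 2850, 947 and 1129 in the knockout at 4, 8 and 24 h, and 1049 at 24 h and 998 at 8 h in wild type. The widest fold among its 4 values at 8 and 24 h was 1.19, between the knockout arrays.

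Mtr encodes methionine synthase, the folate-dependent route back to methionine. Its brighter probe set (1439811_at) read 118, 87 and 111 in the knockout at 4, 8 and 24 h, and 82 at 24 h and 96 at 8 h in wild type. The knockout was 1.35-fold above wild type at 24 h and 1.10-fold under it at 8 h, both short of the rule. The dimmer probe set (1458532_at) was under the floor on the 4 arrays at 8 and 24 h, at 13 to 15. No member of the cycle other than Bhmt therefore passed the rule between genotypes, the folate-dependent enzyme for the same step included.

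Cbs encodes cystathionine beta-synthase, which takes homocysteine into transsulfuration. Its brighter probe set (1423844_s_at) read 281, 69 and 132 in the knockout at 4, 8 and 24 h, and 123 at 24 h and 65 at 8 h in wild type. In each genotype the 24 h array was above the 8 h array, by 1.91-fold in the knockout and 1.89-fold in wild type, just short of the rule, and the genotypes were within 1.07-fold at each time. The second probe set (1425623_a_at) gave 141, 24 and 40 in the knockout at 4, 8 and 24 h, and 49 at 24 h and 25 at 8 h in wild type. It was higher at 24 h by 1.67-fold in the knockout and 1.96-fold in wild type, so both probe sets placed 24 h above 8 h in both genotypes.

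Chdh encodes choline dehydrogenase, which starts the oxidation of choline to betaine in mitochondria. It read 185, 29 and 34 in the knockout at 4, 8 and 24 h, and 29 at 24 h and 26 at 8 h in wild type. The 8 and 24 h values were close to the floor in both genotypes, and the widest fold among these 4 was 1.31. Over time, Bhmt was the only 1 of 6 members to pass, higher at 24 h in both the knockout and wild type, where 6.85% of all genes were higher and 5.26% lower in the knockout, and 5.55% higher and 6.45% lower in wild type.

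The knockout array at 4 h can be set beside the later ones only after it has been brought to their scale, which was done by quantile normalization of all 5 arrays. On that scale Bhmt read 19.0, 43.6 and 104.2 in the knockout at 4, 8 and 24 h. Chdh read 130.2, 33.2 and 38.4, and the brighter Cbs probe set read 196.2, 77.6 and 148.0 at the same times. Ahcy read 1830.9, 1092.5 and 1352.2, and Mat2b 1233.2, 954.2 and 964.1, so these 4 genes stood highest at 4 h. Mtr stood lowest at 4 h, at 82.6, 98.0 and 123.6. No 4 h wild-type array entered this comparison, and the part of the array's scale in these differences was not tested.

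Cells other than granulosa cells differed in signal between the same arrays. At 8 h all 12 endothelial and all 12 stroma and smooth muscle markers were lower in the knockout, with summed intensities of 684 in the knockout and 2285 in wild type for endothelium, and of 4395 and 19658 in the same order for stroma. At 24 h the endothelial sum was 726 in the knockout and 1446 in wild type, and the stroma sum was 8808 and 12728 in that order. In each of these lists, 3 of the 11 genes at or above the floor at 24 h were lower. Some knockout values at 8 h lay under the floor, among them Pecam1 at 13, Tie1 at 10 and Cnn1 at 15. Taken against the floor, the fold was at least 2 for Pecam1, at least 1.5 for Tie1 and at least 3.14 for Cnn1. Of 11 leukocyte markers 2 were lower at 24 h, with sums of 1317 in the knockout and 2007 in wild type, and the 9 oocyte markers had sums of 3262 and 3109 with none past the rule. At 8 h, 4 of the leukocyte markers were lower and 1 higher, with sums of 864 in the knockout and 1463 in wild type. The theca sum over 6 genes at 24 h was 10145 in the knockout and 3738 in wild type, of which Aldh1a1 gave 8536 and 2300, and the other 5 summed to 1609 and 1438. At 8 h it ran the other way, at 3190 in the knockout and 6227 in wild type, with 3 of 6 lower. The granulosa sum was 52958 in the knockout and 42786 in wild type at 24 h, with 2 of 13 higher and none lower. At 8 h it was 38253 and 35439 in that order, with 1 higher and 1 lower. Luteal markers summed to 46211 in the knockout and 66397 in wild type at 24 h, with 5 of 11 lower, and to 42824 and 55036 in that order at 8 h, with 3 lower and 1 higher. Of all genes, 3.92% were lower and 3.13% higher at 24 h, and 4.05% lower and 1.58% higher at 8 h. The part of these markers in the differences of Bhmt and the pathway genes was not tested. In bulk RNA, fewer cells of a type and less RNA per cell cannot be told apart.

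Genes around the cycle were taken from 7 lists with 95 names in all. At 24 h, 9 of the 83 genes at or above the floor were lower in the knockout, while 2 were higher, or 10.8% and 2.41%, against 3.92% and 3.13% of all genes. Their median log2 difference was -0.20, against 0.05 for all genes. The lists were chosen with earlier results of these data known, so these shares are a description and the excess is not used as support. At 8 h, 3 of 83 were lower and 1 was higher, or 3.61% and 1.20%, against 4.05% and 1.58% of all genes. The lower genes at 24 h lay in transsulfuration and glutathione synthesis, polyamine synthesis and methionine salvage, methionine transport and vitamin B12 handling.

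**Figure D3:**
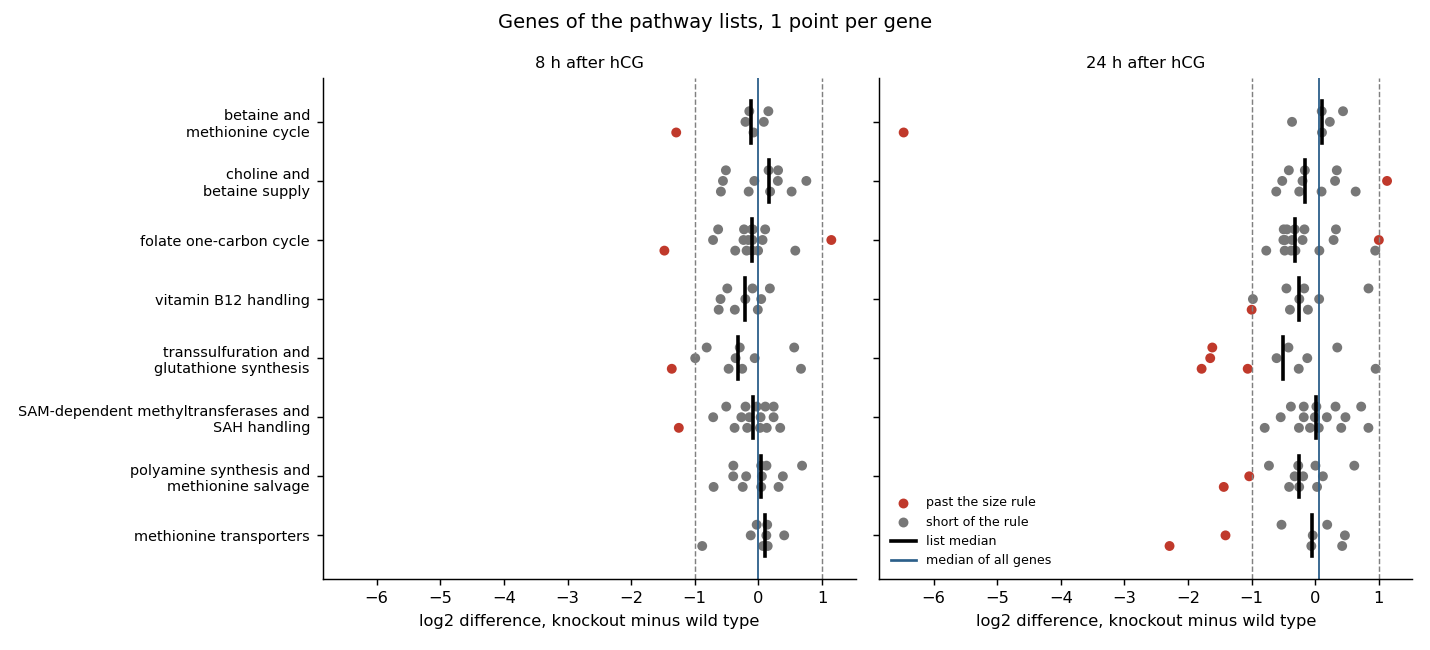
Log2 difference, knockout minus wild type (horizontal axis), of the genes of the cycle and of the 7 lists around it at 8 h (left) and 24 h (right), 1 point per gene at or above the floor. Red points passed the size rule, black bars are list medians and the blue line is the median of all genes. At 24 h, 4 of 10 genes of transsulfuration and glutathione synthesis are red on the lower side, and Bhmt stands alone at -6.47.

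In transsulfuration and glutathione synthesis, 4 of 10 genes at 24 h were lower in the knockout and none was higher, with a median of -0.51. Cth, which encodes the enzyme after Cbs on the way to cysteine, read 556, 68 and 40 in the knockout at 4, 8 and 24 h, and 138 at 24 h and 94 at 8 h in wild type. It was 3.45-fold lower in the knockout at 24 h, while Cbs itself differed by 1.07-fold there. Gss, glutathione synthetase, was 3.14-fold lower at 24 h (92 in the knockout and 289 in wild type). Its second probe set read 104 in the knockout and 172 in wild type, lower but short of the rule. Got1, an aspartate aminotransferase that also acts on cysteine sulfinate, was 3.07-fold lower (312 in the knockout and 958 in wild type), and Ethe1, a sulfur dioxygenase of mitochondria, was 2.09-fold lower (114 and 238 in that order).

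At 8 h, Cdo1, the cysteine dioxygenase, was the gene of that list past the rule, at 109 in the knockout and 280 in wild type. Over time, Gclc, the catalytic subunit of glutamate-cysteine ligase, fell in both genotypes, to 510 at 24 h against 3221 at 8 h in the knockout and to 683 against 2179 in wild type. Its modifier subunit Gclm fell as well, to 430 against 1657 in the knockout and to 469 against 1041 in wild type, by 1 of its 2 probe sets. Csad, an enzyme of taurine synthesis, rose 2.29-fold in the knockout, to 394 at 24 h against 172 at 8 h, and read 204 and 179 at these times in wild type (1.14-fold). Mpst, a sulfurtransferase, read 248 at 24 h and 128 at 8 h in the knockout (1.94-fold, short of the rule), and rose to 378 against 164 in wild type (2.30-fold).

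In choline and betaine supply, 1 of 11 genes was higher in the knockout at 24 h and none was lower, with a median of -0.16. This was Pcyt1a, a regulated enzyme of phosphatidylcholine synthesis, at 794 in the knockout and 363 in wild type, and its other 3 probe sets did not pass (395 in the knockout and 337 in wild type, 63 in the knockout and 68 in wild type, and 168 in the knockout and 225 in wild type). Aldh7a1, which can oxidize betaine aldehyde to betaine, read 455 in the knockout and 652 in wild type at 24 h, and 389 and 554 in that order at 8 h, short of the rule. Slc6a12, a betaine transporter, was under the floor on every array, at 7 to 15.

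Dmgdh encodes the dehydrogenase of dimethylglycine, the second product of the Bhmt reaction, and lies next to Bhmt2 on chromosome 13. At 24 h it read 30 in the knockout and 28 in wild type, and at 8 h 27 in the knockout and 16 in wild type. Sardh, which acts on sarcosine in the next step, read 148 in the knockout and 117 in wild type at 24 h, and 94 and 76 in that order at 8 h. Neither passed the rule in any comparison. Pipox, an oxidase that also takes sarcosine, rose in both genotypes, to 78 at 24 h against 31 at 8 h in the knockout (2.52-fold) and to 104 against 25 in wild type (4.16-fold). Chka, a choline kinase, read 625 at 24 h and 335 at 8 h in the knockout (1.87-fold, short of the rule), and rose to 744 against 350 in wild type (2.13-fold). Of its 3 probe sets, 2 passed upward in the knockout (2.39-fold and 2.08-fold) and all 3 in wild type.

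In the folate cycle, 1 of 17 genes was higher in the knockout at 24 h and none was lower, with a median of -0.32, and at 8 h 1 was higher and 1 lower. Gldc, the glycine decarboxylase, was the gene higher at both times, with 38 in the knockout and 19 in wild type at 24 h (at least 1.73-fold), and with 432 and 195 in that order at 8 h (2.22-fold). It fell with time in both genotypes, 11.4-fold in the knockout and at least 8.86-fold in wild type. Gcsh, another protein of the glycine cleavage system, fell to 2427 at 24 h against 6607 at 8 h in the knockout and to 1987 against 4417 in wild type. Aldh1l1, a formyltetrahydrofolate dehydrogenase, was 2.78-fold lower in the knockout at 8 h (51 in the knockout and 142 in wild type), and its second probe set was under the floor on the 4 arrays at 8 and 24 h.

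Of the folate transporters, Slc19a1, Folr1 and Slc46a1 were above their 8 h values at 24 h in both genotypes, and each passed the rule in 1 of them. Slc25a32 was under its 8 h value in both, at 64 against 74 in the knockout and 72 against 79 in wild type, short of the rule. Slc19a1 read 307 at 24 h and 161 at 8 h in the knockout (1.91-fold) and rose to 381 against 183 in wild type (2.08-fold). Folr1 rose to 596 against 164 in the knockout (3.63-fold) and read 310 and 211 in wild type (1.47-fold). Slc46a1 rose to 159 against 77 in the knockout (2.06-fold, by 1 of 2 probe sets) and read 152 and 90 in wild type (1.69-fold). Mthfd1, which interconverts folate one-carbon units, read 571 at 24 h and 378 at 8 h in the knockout (1.51-fold) and rose to 805 against 402 in wild type (just 2-fold, by 1 of 3 probe sets). Mtrr, which keeps methionine synthase active, read 159 in the knockout and 221 in wild type at 24 h, short of the rule.

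In vitamin B12 handling, the cofactor route of methionine synthase, 1 of 9 genes was lower in the knockout at 24 h, with a median of -0.25. This was Mmachc, which trims newly imported cobalamin, at 134 in the knockout and 268 in wild type, exactly 2-fold. Mmab, an adenosyltransferase of cobalamin, read 73 in the knockout and 144 in wild type, a log2 difference of -0.98 that missed the rule. Tcn2, the carrier of B12 in plasma, rose to 2927 at 24 h against 1186 at 8 h in the knockout (2.47-fold) and read 1638 and 1046 in wild type (1.57-fold). Of its 5 probe sets, 2 passed in the knockout and none in wild type.

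Among SAM-dependent methyltransferases and handlers of S-adenosylhomocysteine, none of 16 genes passed between genotypes at 24 h, with a median of 0.01. Gnmt, the glycine methyltransferase abundant in liver, read 42 in the knockout and 37 in wild type at 24 h. Gamt, which makes creatine, rose in both genotypes, to 818 at 24 h against 159 at 8 h in the knockout (5.14-fold) and to 822 against 206 in wild type (3.99-fold). Nnmt, the nicotinamide methyltransferase, was 2.38-fold lower in the knockout at 8 h (29 in the knockout and 69 in wild type). Adk, a kinase that clears adenosine, read 1119 in the knockout and 1941 in wild type at 24 h, short of the rule.

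In polyamine synthesis and methionine salvage, 2 of 12 genes were lower in the knockout at 24 h, with a median of -0.26. Srm, spermidine synthase, was 2.71-fold lower (718 in the knockout and 1946 in wild type). It rose in wild type from 8 h to 24 h by 2.02-fold and read 718 at 24 h and 845 at 8 h in the knockout. Adi1, a dioxygenase of methionine salvage, was 2.05-fold lower (245 in the knockout and 503 in wild type), and its other 2 probe sets went the same way, at 173 in the knockout and 346 in wild type, and at 105 in the knockout and 239 in wild type. Odc1, which makes putrescine, read 2520 in the knockout and 2874 in wild type at 24 h. Sat1, which acetylates polyamines, read 440 at 24 h and 638 at 8 h in the knockout, short of the rule, and fell to 439 against 1039 in wild type.

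Of 8 transporters that carry methionine or pair with such carriers, 2 at 24 h were lower in the knockout and none was higher, with a median of -0.05. Slc7a8, a neutral amino acid carrier, read 245 in the knockout and 1199 in wild type (4.89-fold lower). Slc3a2, the heavy chain it shares with Slc7a5, read 1222 in the knockout and 3250 in wild type (2.66-fold lower). Both were near equal between genotypes at 8 h, at 4629 in the knockout and 4243 in wild type for Slc7a8, and at 6262 and 5950 in that order for Slc3a2. Slc7a5 read 1188 in the knockout and 1240 in wild type at 24 h, and 590 and 641 in that order at 8 h. Its rise with time was 2.01-fold in the knockout, just past the rule, and 1.93-fold in wild type, just short of it.

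The 5 genes whose profile over the 4 arrays at 8 and 24 h was nearest to that of Bhmt were found by the root mean square difference of log2 values, each taken relative to wild type at 24 h. They were Mmel1 (2.15), Slc12a8 (2.16), Rab27a (2.61), Parvb (2.63) and D630023F18Rik (2.66), out of 13315 genes compared. Even the nearest was thus more than 2 on the log2 scale away. Mmel1 read 30 in the knockout and 601 in wild type at 24 h, and 13 and 28 in that order at 8 h. Slc12a8, a member of the cation-chloride cotransporter family, read 81 in the knockout and 1600 in wild type at 24 h, and 36 and 71 in that order at 8 h.

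Rab27a, a small GTPase of secretory vesicles, read 159 in the knockout and 1281 in wild type at 24 h. Of its 3 other probe sets, 1 had 13 in the knockout and 15 in wild type at 24 h, under the floor. Parvb, an integrin-linked parvin, read 65 in the knockout and 1169 in wild type at 24 h, and its second probe set only 26 and 43 in that order. In all 5 genes the wild-type array at 24 h was the highest of the 4, as it was for Bhmt, which follows from how they were picked.

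**Figure D4:**
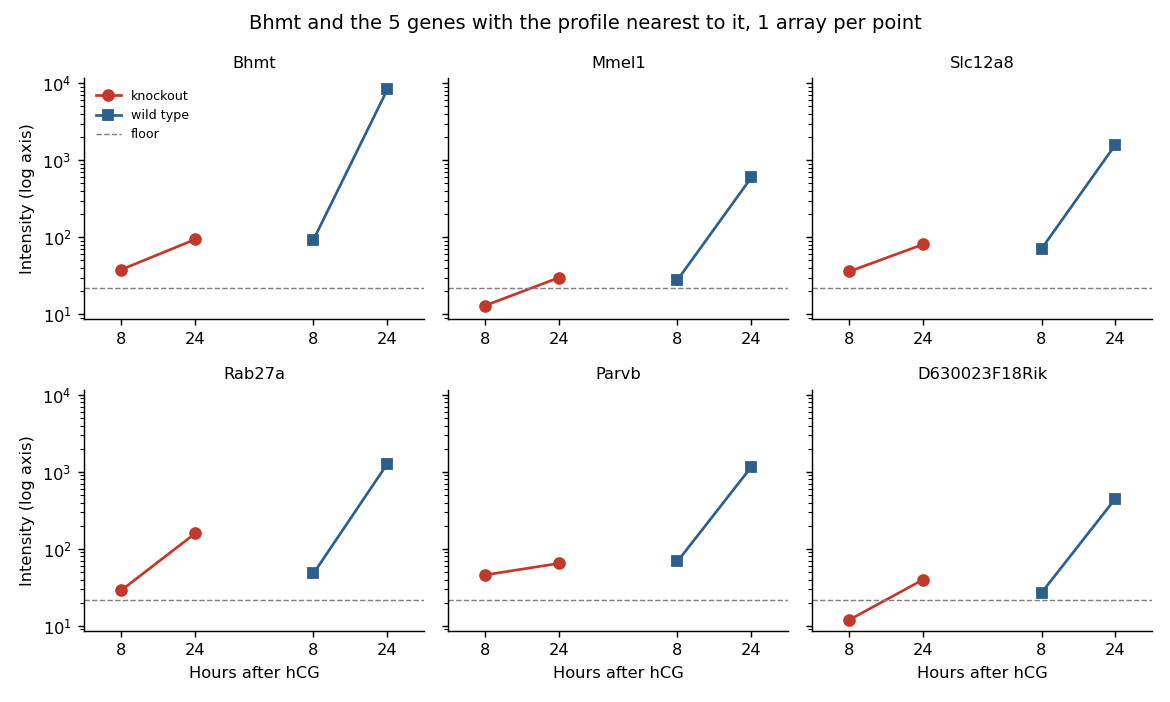
Intensity on a log axis of Bhmt and the 5 genes nearest to its profile, against hours after hCG, with 1 array per point. Knockout arrays are red circles, wild-type arrays blue squares and the dashed line is the floor of 22. In each panel the wild-type array at 24 h is the highest, from 452 for D630023F18Rik to 8343 for Bhmt, which follows from how the genes were picked.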

How the data were processed

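Total RNA of 5 granulosa cell preparations was labelled and hybridized to Affymetrix arrays of 45101 probe sets. The authors' deposited values are intensities, made with affy and RMA per the submitters' processing notes, which give no version here. The deposited table holds whole numbers on a linear scale, from 4 to 56432, so log2 was taken here and low values are coarse. Sorted values above the floor differed by a mean range of 0.05 (log2) over 4 arrays, and the knockout array at 4 h lay higher.

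Probe sets were named from the platform annotation with symbols updated by Entrez identifier (34958 had 1 symbol, 932 several and 9211 none; 34754 identifiers matched a RefSeq table of GRCm38.p6). Only the first kind was used, and a gene was read from its probe set of highest mean log2 value, except where all are given. Precision is limited by the number of arrays. The size rule was run on simulated data as a check of the code only, with changes well past the rule in genes well above the floor. That run says nothing about changes near the rule or near the floor. Work was done in Python 3.11.15 with pandas 2.3.3, NumPy 2.4.6 and Matplotlib 3.10.9.

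The members, lists, size rule and comparisons were chosen with earlier results of these data known. Named were all members, and list genes past the rule with examples of largest difference. The 5 profiles nearest to Bhmt and the top of the 24 h order were named too. A few further genes of known role (Gnmt, Mtrr, Odc1, Sardh, Dmgdh, Slc6a12, Aldh7a1, Mmab, Apoa1, Aldh1a1, Slc25a32 and Adk) were picked after their values were seen. Alternatives were 2 scalings, 2 probe set choices, 2 floors, 2 thresholds, an offset of 16 and leaving out the array at 4 h.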

Additional observations from a re-analysis of the deposited data

Results flagged for a closer look

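Of 89 members and list genes at or above the floor, 19 had log2 changes from 8 h to 24 h of opposite sign in the genotypes, each genotype being a pair of single arrays. The 10 named in the text are given here, and the other 9 differed by at most 0.49 on the log2 scale. These differences were not tested, and 5 of the 19 reached the size rule for the difference of changes. Of all genes, 8.13% passed the rule in that contrast. How many of all genes had changes of opposite sign was not counted, so nothing about these genes as a set is read from the 19 or the 5. Among members they were Mat2b, with a log2 change of -0.0035 in the knockout and 0.16 in wild type (a difference of -0.16, knockout minus wild type), and Mtr, with 0.35 in the knockout and -0.23 in wild type (0.58). Neither reached the size rule, and for Mtr the second probe set was under the floor.

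Of the genes around the cycle, Gss (-0.76 in the knockout and 0.64 in wild type, a difference of -1.40), Cth (-0.77 and 0.55, -1.32), Srm (-0.23 and 1.01, -1.25), Adi1 (-0.02 and 1.15, -1.17) and Got1 (-0.58 and 0.22, -0.81) were lower at 24 h in the knockout and higher in wild type. Nnmt (0.05 in the knockout and -1.02 in wild type, 1.07) and Aldh1l1 (0.88 and -0.09, 0.98) went the other way. Mmab had -0.02 in the knockout and 0.34 in wild type (-0.36). For Adi1, Nnmt and Mmab the knockout value lay close to 0. A second Adi1 probe set gave 0.10 in the knockout and 1.60 in wild type (-1.50), and the third gave -0.01 and 0.19 (-0.20), short of the rule. The second Gss probe set gave -0.12 in the knockout and 0.46 in wild type (-0.58), also short of it. The second Aldh1l1 probe set was under the floor.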

How the results depend on the processing

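The genotype difference of Bhmt at 24 h was -6.25 to -6.52 over all settings. Bhmt has 1 probe set, so only the 2 scalings and the offset could move that value. Its size also left it past either threshold. That Bhmt passed under all 10 alternatives was therefore largely fixed in advance, and no other member came to pass there. At a 3-fold threshold no member passed at 8 h (0) or from 8 h to 24 h in the knockout (0), because Bhmt was at -1.29 and 1.31 (log2). At 1.5-fold, 2 members passed from 8 h to 24 h in each genotype, with Cbs at 0.94 in the knockout and 0.92 in wild type. With a floor at the 20th percentile (an intensity of 11), 2 members passed for the difference of changes, the second being Mat1a at -1.04, a gene with no value above 17. Of 390 values of single members under these alternatives, 385 kept their direction where called and their side of the rule, 3 came to pass it, 2 ceased to pass it and none was reversed. Leaving out the knockout array at 4 h, an alternative chosen after seeing the data, lowered the floor to 19 and changed no count of members.

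The knockout differences of 8 h minus 4 h depended on the scaling. As deposited, log2 values were 0.34 for Bhmt, -1 for Bhmt2, -0.50 for Mat1a, -1.23 for Mat2b, -1.59 for Ahcy, -2.03 for Cbs, -2.67 for Chdh and -0.44 for Mtr. After median centring they were 1.14, -0.20, 0.30, -0.43, -0.79, -1.23, -1.87 and 0.36 in the same gene order, and after quantile normalization 1.20, 0, 0.54, -0.37, -0.74, -1.34, -1.97 and 0.25. The sign thus turned for Mtr and for Mat1a, and Mat1a was under the floor.

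No paired analysis was possible because each group was 1 array, and no replicate was left out for the same reason. Values near the floor are small whole numbers, so differences of Chdh, Bhmt2 and Mat1a are coarse.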
